A study of Mus musculus with 9 samples.

Results

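The nuclear-encoded subunits of the respiratory chain were followed in bulk RNA sequencing of the paraventricular nucleus of the hypothalamus (PVN) of mice. Members were chosen by gene symbol: the Nduf subunit series, Sdha to Sdhd, the Uqcr series with Cyc1, the Cox4 to Cox8 series and the Atp5 series, each with a mean raw count of at least 10 over the 9 samples. Of 27179 genes in the table, 91 symbols matched and 87 genes were kept. These were 42 genes of complex I, 4 of complex II, 8 of complex III, 16 of complex IV and 17 of complex V. Uqcr11, Cox8c and Cox8b fell under the count minimum, with mean counts of 2.33, 2.56 and 2.78, and Uqcrh-ps1 was left out for its pseudogene symbol. Just inside the minimum were Ndufb4c with a mean count of 28.3 and Cox7b2 with 41.0. The symbols also bring in Atp5s, which is not a structural subunit of the ATP synthase, and Ndufa4, now placed in complex IV. Also among them are Cox7a2l, a paralog, and Ndufa11b, Ndufb4b, Ndufb4c and Ndufs6b. Ndufa11b, Ndufb4c and Ndufs6b are annotated as processed pseudogenes in GENCODE M21, and Ndufb4b had no match there. They were kept because their symbols carry no pseudogene mark.

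The respiratory chain sits in the inner mitochondrial membrane. Complex I takes electrons from NADH, complex II takes them from succinate, complex III passes them to cytochrome c, and complex IV hands them to oxygen. Complexes I, III and IV pump protons, and complex V, the ATP synthase, uses the proton gradient to make ATP. Most subunits are encoded in the nucleus and imported, a few by the mitochondrial genome, and neurons depend on the chain for most of their ATP.

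Tissue punches came from wild type male C57BL/6 mice (C57BL/6J in the study's methods), with 3 mice in each of 3 groups, kept apart from the mice used for metabolic testing. Control mice ate chow with 16% of calories from fat for 12 weeks. HFD mice ate a diet with 60% of calories from fat for the same time, and HFD+Mino mice ate that diet and drank water with minocycline, a tetracycline antibiotic, at 40 mg/kg per day in the last 6 weeks. Every mouse entered at 5 weeks of age and none received minocycline on chow, so the drug was seen only under the high-fat diet. A punch holds neurons, glia and vessels together, and fewer cells of a type cannot be told apart from less RNA per cell.

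Libraries differed within groups before any group was compared. Total counts ran from 17728590 to 42326213 per library. Oxt and Avp, the hormone genes that mark the PVN, were almost absent from Control replicate 1. Levels are given as CPM, counts scaled by library size with TMM factors. Oxt was at 0.77, 427 and 1192 CPM in Control mice, 1402, 1364 and 1409 in HFD mice and 8907, 8696 and 1358 in HFD+Mino mice. Avp was at 0.149, 157 and 990.26 CPM in Control mice, 589.52, 1487 and 1984 in HFD mice and 28049, 22180.30 and 1218 in HFD+Mino mice. The summed CPM of 8 oligodendrocyte markers was 29596 in that Control library, against 2262 to 6985 over the HFD and HFD+Mino libraries. The 8 PVN markers summed to between 40.04 and 2583 CPM in Control, 2519 and 3769 in the HFD libraries, and 3122 and 37769 in HFD+Mino. Neuron markers (12 genes) summed to between 6151 and 9036, 4953 and 7379, and 5113 and 5811 CPM, so neuronal RNA was present in every library. The ribosomal RNA precursor Rn45s was at 239 to 461 CPM in Control, 3477 to 3829 over the HFD libraries, and 426 to 1346 in HFD+Mino. Astrocyte markers summed to between 4769 and 7063 CPM over the 9 libraries, microglia markers to between 285 and 497, and endothelial and mural markers to between 170 and 446. The sums of 8 ependymal and choroid markers did not overlap between groups, with 24.6 to 139 CPM in Control, 150 to 285 over the HFD libraries, and 310 to 637 in HFD+Mino. All 8 had log2 fold changes above 0 in HFD against Control, but 4 were above and 4 below 0 in HFD+Mino against HFD. As single genes, 19.7% of all genes had HFD above Control in every sample, and 23.3% had HFD+Mino above HFD. None of the neuron, PVN, glial, vascular, ependymal and choroid markers was called in HFD against Control, where 1.42% of all genes were lower and 0.317% higher. Among them, 1 was called lower in HFD+Mino against HFD, where 2.16% of all genes were. It was the mural cell gene Pdgfrb (-1.57 ± 0.31 on the log2 scale, standard error, FDR 0.00949). At FDR under 0.05 and 1.5-fold in that comparison, 12.9% of all genes were lower and 14.6% higher. Of the markers, 3 of 12 for neurons and 3 of 8 for astrocytes were lower and 3 of 8 for microglia higher. Of the vascular markers 2 were higher and 2 lower, of the ependymal and choroid markers 2 and 1, and of the PVN and oligodendrocyte markers none was either. The neuron markers had a median log2 fold change of -0.67, with 8 of 12 below 0, against 49.7% of all genes. The part of these differences in the results that follow was not tested. Medians of the members, counts called at FDR under 0.01 and the values of Ndufa2 are also given with 1 library left out. Counts at FDR under 0.05, and the fold changes and FDRs of other single genes, are given from all 9 libraries only.

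The 87 genes together took 3.80%, 2.95% and 2.05% of all counts in the Control libraries, 2.19%, 2.32% and 2.17% in the HFD libraries, and 5.03%, 4.53% and 2.81% in HFD+Mino. HFD libraries lay close together and inside the range of the Control libraries, while HFD+Mino replicates 1 and 2 were the highest of the 9. Complex I took between 0.706% and 2.13% of counts and complex V between 0.650% and 1.21%. Complex II, the smallest complex, stayed between 0.154% and 0.218%.

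**Figure D1:**
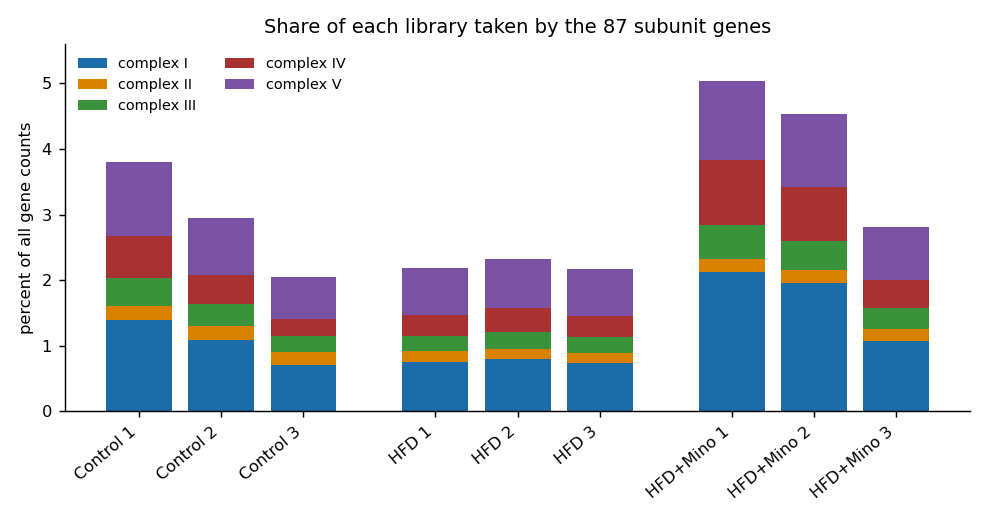
Percent of all gene counts taken by the subunit genes of complexes I to V (stacked colours) in each of the 9 libraries, 3 per group. The 3 HFD libraries sit between 2.17% and 2.32%, while Control runs from 2.05% to 3.80% and HFD+Mino from 2.81% to 5.03%.

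Per length, the catalytic and small structural subunits led. Levels of different genes were compared as CPM per kilobase of exon, averaged over the 9 samples, which 86 members allowed, with a median of 202 CPM per kb. Cox8a, a small subunit of cytochrome c oxidase (chr19:7215158-7217616, GRCm38), had the highest level at 1122 CPM per kb. In complex I the highest was Ndufa1, a small accessory subunit, at 841 CPM per kb. Atp5b, the catalytic beta subunit of the ATP synthase (chr10:128083307-128090388), was at 626 CPM per kb and led complex V. In complex III the leader was Uqcr10 at 591, and in complex II Sdha, the flavoprotein that oxidises succinate (chr13:74322255-74350240), at 264 CPM per kb, next to the iron-sulfur subunit Sdhb at 254. With the longest transcript in place of all exons, Cox4i1 at 1463 CPM per kb moved ahead of Cox8a at 1263 in complex IV, and Sdhb at 462 ahead of Sdha at 376. The membrane anchor subunit Sdhd (chr9:50596340-50603849) was at 2.90 CPM per kb, far under its partners. Its mean raw count was 118, against 6933 for Sdhc and 36552 for Sdha. Whether reads of Sdhd were lost in alignment or counting was not tested.

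HFD against Control asks what the diet did to the subunit genes. Nearly all lay lower in HFD, by a small amount, and none passed the test. The median log2 fold change of the 87 members was -0.48, against 0.00 over all 17344 genes tested, and 82 of 87 members were below 0, against 49.7% of all genes. By the edgeR quasi-likelihood test with a Benjamini-Hochberg false discovery rate (FDR) under 0.01 and at least 1.5-fold, 0 members were called lower and 0 higher, where 1.42% and 0.317% of all genes were called. At FDR under 0.05 and 1.5-fold 0 members were lower or higher, where 3.21% and 2.57% of all genes were. At an unadjusted p under 0.05, 6 members were lower, where 9.22% of all genes were, and 0 higher, where 11.3% were. DESeq2 also called 0, where it called 3.2% of all genes higher and 3.79% lower. The lowest FDR of a member was 0.140.

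Cyc1, the cytochrome c1 subunit of complex III (chr15:76343513-76346260), gave that value. It was at 675, 471 and 378 CPM in Control mice, 250.01, 328 and 298 in HFD mice and 692, 389.60 and 443 in HFD+Mino mice. All 3 HFD samples were under all 3 Control samples and under all 3 HFD+Mino samples, and the log2 fold change in HFD against Control was -0.80 ± 0.29 (standard error, FDR 0.14). Among all 87 members, 11 had the 3 HFD samples below the 3 Control samples, where 16% of all genes did, so the members were no more often separated than other genes. Of the 11, 7 also had HFD below every HFD+Mino sample, among them Cyc1, Ndufv1 and Sdhc. Those 7 compare with 9.62% of all genes in which the HFD samples were the lowest of the 9.

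Complexes differed little in this comparison. Median log2 fold changes in HFD against Control were -0.53 in complex I, -0.48 in complex II, -0.50 in complex III, -0.46 in complex IV and -0.38 in complex V. All members of complexes I, II and III were below 0, as were 15 of 16 in complex IV and 13 of 17 in complex V. The lowest were Cox7a1, the heart and muscle form of a complex IV subunit, at -0.95 (FDR 0.365), and Cox6a1, the widely expressed form of another, at -0.89 (FDR 0.282). In complex I, Ndufa11b, annotated as a processed pseudogene, and Ndufa4l2 were lowest with log2 fold changes of -0.85 and -0.85. Ndufc1 and Ndufb11 were nearest to 0 with -0.18 and -0.21. In complex III the range ran from Cyc1 and Uqcrh, at -0.80 and -0.63, to Uqcr10 and Uqcrb, at -0.37 and -0.33. Atp5mpl and Atp5g1 were lowest in complex V, at -0.64 and -0.63.

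The 5 members on the other side of 0 were Atp5g2 (0.52), Cox6a2 (0.51), Atp5l (0.11), Atp5d (0.08) and Atp5e (0.07), with FDRs of 0.440 to 0.941. Atp5g2, which encodes 1 of 3 copies of the ring subunit c, was at 33.7, 28.5 and 22.6 CPM in Control mice, 42.6, 41.9 and 36.7 in HFD mice and 107, 83.4 and 33.5 in HFD+Mino mice. It was the 1 member with every HFD sample above every Control sample, where 19.7% of all genes were, and 87.4% of its 50-base stretches also occur in other annotated transcripts, so its reads may be shared.

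The size of the difference from Control rested on which Control library was present. Without Control replicate 1, which lacked the PVN hormone genes, the median log2 fold change of the members was -0.17 and 65 of 87 were below 0, with complexes IV and V at -0.04 and -0.03. Without Control replicate 3 the median was -0.73 and 85 were below 0. The number called stayed at 0 with any of the 9 libraries left out, where 0.312% to 2.2% of all genes were called lower and 0.0222% to 0.88% higher.

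**Figure D2:**
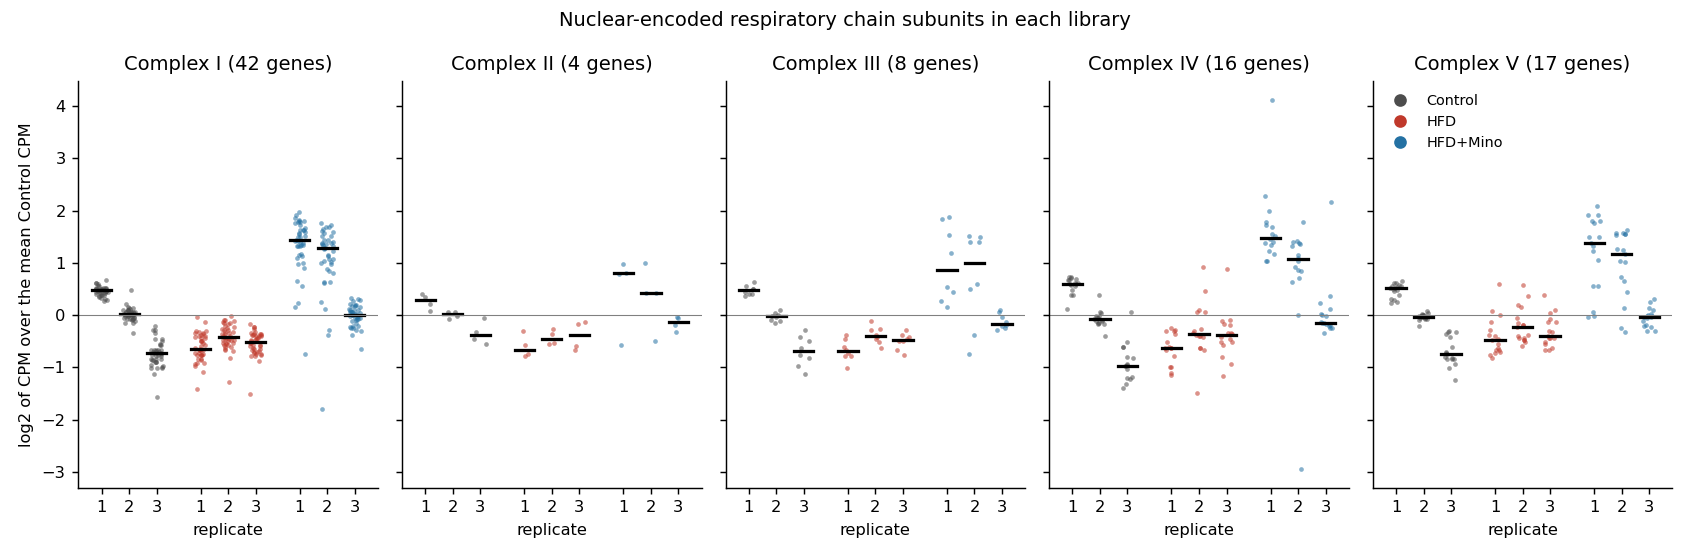
log2 of each member's CPM over its mean in Control (vertical axis) in each library (horizontal axis, replicates 1 to 3 of Control, HFD and HFD+Mino), 1 panel per complex, points for genes and black bars for medians. Control medians spread from positive in replicate 1 to negative in replicate 3, HFD libraries lie together below 0, and HFD+Mino replicates 1 and 2 stand above replicate 3.

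Control and HFD+Mino mice varied widely among themselves, and HFD mice little. Relative to the mean log2 level in Control, the median of the members was 0.57, 0.08 and -0.67 on the log2 scale in Control replicates 1 to 3, -0.52, -0.30 and -0.37 in the HFD libraries, and 1.499, 1.23 and 0.05 in HFD+Mino. Control replicate 1 was the highest and replicate 3 the lowest Control sample in 84 of 87 members, where 27.6% of all genes had that order. HFD+Mino replicate 3 was the lowest of its group in 78 members, where 36.2% of all genes had it lowest. The median coefficient of variation of the members was 0.410 in Control, 0.0943 for the HFD mice, and 0.455 in HFD+Mino, beside 0.248, 0.149 and 0.359 over all genes tested. In HFD it was 0.0917 for the 78 members with a mean CPM of at least 10 and 0.214 for the 9 under 10, so the low value was that of abundant members, and no test of the difference was made.

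HFD+Mino against HFD asks what minocycline did under the diet. Nearly all subunit genes were higher with the drug, with a median log2 fold change of 1.42 against 0.01 over all genes, and 85 of 87 were above 0, against 50.3% of all genes. The call at FDR under 0.01 and 1.5-fold was reached by 1 member, Ndufa2, where 1.98% of all genes were called higher, and 0 were called lower, where 2.16% were. At an unadjusted p under 0.05, 76 members were higher, where 21.6% of all genes were, and 0 lower, where 19.8% were. At FDR under 0.05 and 1.5-fold, 62 of 87 members rose and 0 fell, where 14.6% and 12.9% of all genes did, and rose is used for this second threshold from here on. In 71 members all 3 HFD+Mino samples lay above all 3 HFD samples, where 23.3% of all genes were so separated. This comparison shares its HFD samples with HFD against Control.

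Ndufa2, an accessory subunit of complex I, was at 348, 286 and 167 CPM in Control mice, 157, 193 and 161 in HFD mice and 1000.05, 858 and 305 in HFD+Mino mice. Every HFD+Mino sample was above every HFD sample, but replicate 3 lay inside the Control range. Its log2 fold change was 2.08 ± 0.41 (standard error), and its FDR was 0.00946. With 1 library left out at a time its FDR ran from 0.000639 without HFD+Mino replicate 3 to 0.0531 without HFD replicate 3, and the log2 fold change from 1.77 to 2.45. The number of members called under the same rule was 62 without HFD+Mino replicate 3, where 11.6% of all genes were called higher. It was 5 without Control replicate 1, where 2.4% were, and 6 without Control replicate 3, where 2.03% were. It was 0 without any of the other 6 libraries, where only 0.145% to 1.14% of all genes were called higher. Without HFD+Mino replicate 1, 2 or 3 the median of the members was 1.15, 1.33 or 1.75.

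Medians differed between complexes, in an order that depended on the processing. Median log2 fold changes in HFD+Mino against HFD were 1.498, 0.93, 1.10, 1.35 and 1.21 in complexes I to V. With a trend on exon length removed they were 0.62, 0.35, 0.36, 0.49 and 0.62, and with one on coding length removed 0.64, 0.30, 0.52, 0.33 and 0.40, so that complex IV came in the middle or next to last. At FDR under 0.05 and 1.5-fold the test was passed by 36 of 42 members of complex I, 2 of 4 of complex II, 4 of 8 of complex III, 10 of 16 of complex IV and 10 of 17 of complex V. No test between complexes was made, since their genes are not replicates.

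**Figure D3:**
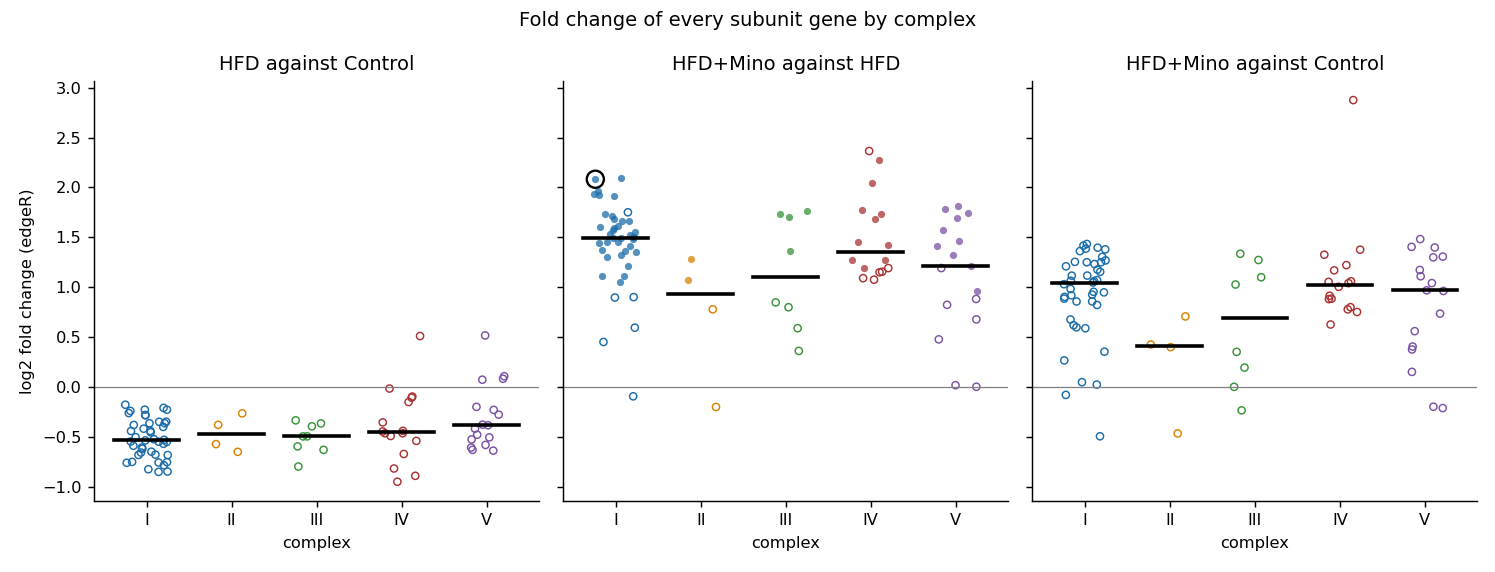
log2 fold change of every member (vertical axis) by complex (horizontal axis) in the 3 comparisons. Filled points have FDR under 0.05, the circled point is Ndufa2, called at FDR under 0.01, and bars are medians. In HFD against Control no point is filled and medians lie between -0.53 and -0.38, while in HFD+Mino against HFD they lie between 0.93 and 1.498.

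Within complex I, the 7 nuclear subunits of the core, which carry the flavin and the iron-sulfur clusters, had a median log2 fold change of 1.12. The 35 other genes, annotated pseudogenes among them, had one of 1.53. Ndufs7, an iron-sulfur subunit, rose by 1.45 ± 0.34 on the log2 scale (FDR 0.0145), and Ndufs8, Ndufs3 and Ndufv2 by 1.36, 1.21 and 1.12 (FDR 0.0204, 0.0184 and 0.0388). The NADH-binding subunit Ndufv1 was at 529.58, 365 and 319 CPM in Control mice, 237, 299 and 305 in HFD mice and 477, 332 and 339 in HFD+Mino mice. Its log2 fold change was 0.45 ± 0.25 (FDR 0.202). Ndufs1, the largest core subunit (chr1:63143592-63176822), was at 369.80, 305 and 252 CPM in Control mice, 230.09, 230.16 and 242 in HFD mice and 183, 238 and 236 in HFD+Mino mice. Its HFD and HFD+Mino samples overlapped and the log2 fold change was -0.09 ± 0.21 (FDR 0.77).

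Subunits of complex II did not move alike. Sdha was at 1346, 1254 and 1236 CPM in Control mice, 1028, 996 and 1168 in HFD mice and 859, 903 and 1016 in HFD+Mino mice. Control was above HFD in every sample, HFD overlapped HFD+Mino, and the log2 fold change with the drug was -0.20 ± 0.19 (FDR 0.455). Sdhb, which joins Sdha in the matrix arm, was at 659, 539 and 350.44 CPM in Control mice, 347, 353 and 342 in HFD mice and 1009, 1023 and 495 in HFD+Mino mice. It rose by 1.28 ± 0.31 (FDR 0.0163). Sdhc, a membrane anchor, rose by 1.08 ± 0.27 (FDR 0.0185), and Sdhd, the other anchor, was at only 4.02, 3.61 and 2.77 CPM in Control mice, 2.01, 2.90 and 3.06 in HFD mice and 6.06, 4.64 and 3.03 in HFD+Mino mice, with 0.78 ± 0.38 (FDR 0.144).

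In the other complexes members also differed in size of change. In complex III, Uqcr10 rose by 1.70 ± 0.44 (FDR 0.0195) and Uqcrh by 1.73 ± 0.45 (FDR 0.0202), whereas Cyc1 had 0.80 ± 0.29 (FDR 0.0577) and the core protein gene Uqcrc1 0.36 ± 0.27 (FDR 0.337). In complex V, Atp5mpl rose by 1.81 ± 0.48 (FDR 0.0211). Atp5b was at 3848, 2757 and 2190.07 CPM in Control mice, 2259, 2569 and 2672 in HFD mice and 2899, 2332 and 2362 in HFD+Mino mice. Its groups overlapped and the log2 fold change was 0.02 ± 0.24 (FDR 0.964), the alpha subunit gene Atp5a1 gave 0.00 ± 0.22 (FDR 0.996), and Atp5d, a short subunit gene of 504 nt of coding sequence, 0.48 ± 0.32 (FDR 0.28). In complex IV, whose catalytic subunits are mitochondrially encoded, every nuclear member was above 0, from 1.08 in Cox7b2 to 2.36 in Cox6a2. Cox8a was at 736, 474 and 287 CPM in Control mice, 410.43, 535 and 444 in HFD mice and 1719, 1104 and 542 in HFD+Mino mice, and its log2 fold change was 1.28 ± 0.42 (FDR 0.042).

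Fold changes fell with coding length, with exceptions. Across the 83 members with an annotated coding sequence, Spearman's rho between the log2 fold change in HFD+Mino against HFD and the coding length was -0.60. Over all 15470 tested genes with one it was -0.54, a gradient of like size. Members are short, with a median coding length of 423 nt against 1386 nt over all tested genes. The 28 members of 156 to 324 nt had a median log2 fold change of 1.69, the 28 of 333 to 516 nt 1.46, and the 27 of 525 to 2181 nt 0.96. The 9 members of at least 1200 nt had a median of 0.36, but among them Ndufv3, of 1404 nt, rose by 1.61 ± 0.35 (FDR 0.0123). In HFD against Control the rho was -0.14 among members and 0.35 over all genes, and the medians of the same length classes were -0.45, -0.43 and -0.54.

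Libraries carried the same gradient in genes at large. Tested genes with coding lengths up to 867 nt had medians, relative to the Control mean, of 0.19, 0.07 and -0.24 on the log2 scale in Control, -0.24, -0.12 and -0.18 in the HFD libraries, and 0.66, 0.54 and 0.09 in HFD+Mino. Genes from 2217 nt had -0.21, -0.07 and 0.27 in Control, 0.44, 0.37 and 0.46 in the HFD libraries, and -0.40, -0.33 and -0.08 in HFD+Mino. With a smooth trend on exon length removed from each library, the median of the members in HFD+Mino against HFD was 0.55, with 80 of 87 above 0 and 0 called, where 1.85% of all genes were called higher and 0.726% lower. In HFD against Control it was -0.26, with 75 below 0. Removal of a trend on coding length, chosen after seeing the data, gave 0.50 and -0.28, beside 0.11 and -0.04 over all genes. What sets the trend was not tested.

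**Figure D4:**
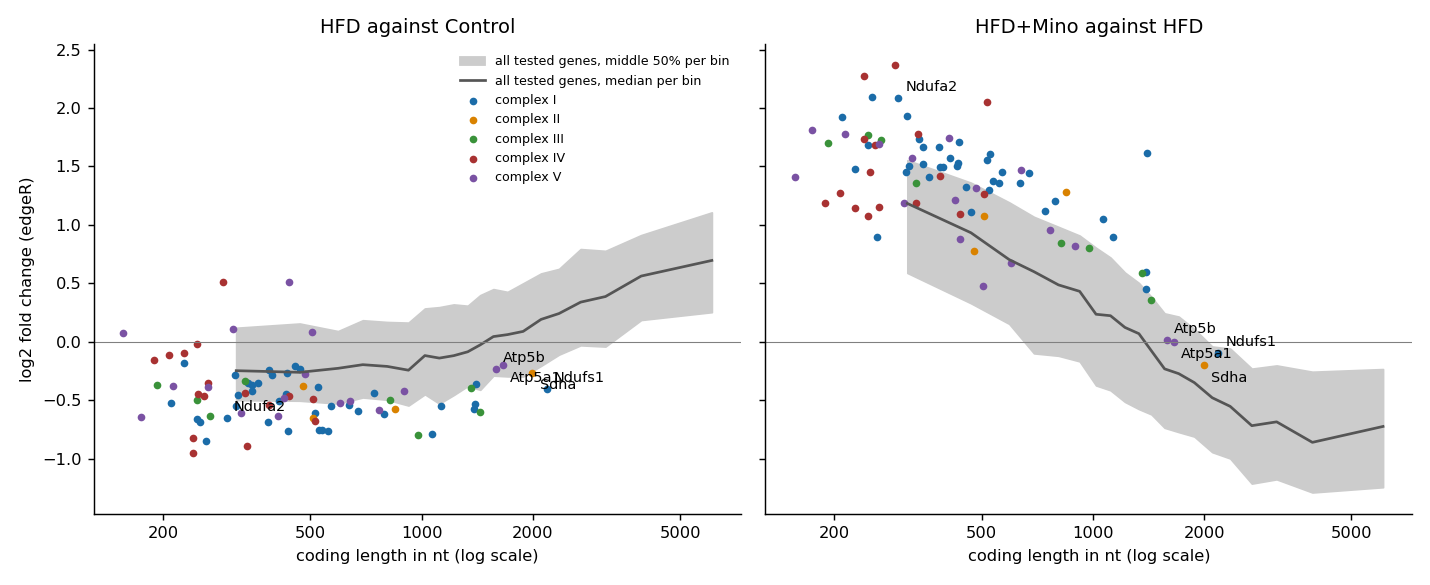
log2 fold change (vertical axis) against coding length in nt (horizontal axis, log scale) for the members, coloured by complex, with the median and middle 50% of all tested genes in grey, binned by length. In HFD+Mino against HFD both fall with length, from 1.69 in the shortest members to near 0 in Atp5b, Atp5a1, Ndufs1 and Sdha.

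HFD+Mino against Control asks what diet and drug together left. The median log2 fold change of the members was 0.98, against -0.02 over all genes, and 81 of 87 were above 0, against 48.8% of all genes, with 6 below 0, against 51.2%. No member was called higher or lower, as was no gene at all (0.0%), and the lowest FDR was 0.132. At an unadjusted p under 0.05, 53 members were higher, where 12.7% of all genes were, and 2 were lower, where 8.63% were. In 0 members did the 3 HFD+Mino samples lie above the 3 Control samples, where 8.93% of all genes did. In Ndufs1 and Sdha they lay below them, where 10.1% of all genes did, with log2 fold changes of -0.49 ± 0.21 (FDR 0.212) and -0.47 ± 0.19 (FDR 0.2).

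Control and HFD+Mino samples with the same replicate number deviated together, and with the number as a block in these groups the counts were larger. The labels name no pairs of mice, and the block was limited to the groups whose same-numbered samples correlated in these same data. The larger counts are therefore no separate support. In HFD+Mino against Control 45 members were then called higher, where 2.68% of all genes were, and in HFD+Mino against HFD 69, where 12.9% were. The 3-way test, which asks whether HFD was the highest or lowest of the groups, called 0 members without the block, where 1.21% of all genes were called with HFD lowest and 0.917% with HFD highest. With it the test called 32 members with HFD lowest, where 5.4% of all genes were, and 0 with HFD highest, where 7.76% were. In HFD against Control it called 0 members, where 2.87% of all genes were lower and 3.35% higher. With the number as a block in all 3 groups, 13 members were called higher in HFD+Mino against HFD, where 3.27% of all genes were called higher and 4.62% lower, and 0 in HFD against Control, where 1.3% were called lower and 0.334% higher. At FDR under 0.05 alone the 3-way test passed 46 members, where 20.4% of all genes did. DESeq2 called 40 members with HFD lowest in the 3-way test and 57 higher in HFD+Mino against HFD, where 7.05% and 10.5% of all genes were called. In HFD+Mino against Control DESeq2 called 0 members, where 1.21% of all genes were called higher and 0.4% lower.

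Members moved together from library to library. Over the 9 samples the median Pearson r of log2 CPM was 0.936 over the 3741 pairs of members, and 72 of 87 members had r of at least 0.9 with the mean of the members. The libraries differed in depth, length gradient and group, so these correlations are descriptions. The members under 0.5 were Sdha (-0.50), Ndufs1 (-0.16), Cox6a2 (0.25), Ndufa4l2 (0.40), Atp5a1 (0.41), Uqcrc1 (0.43) and Atp5b (0.43). Of these 7, 5 encode large subunits with catalytic, core or cluster-binding roles and 2 are isoforms with low counts.

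Several subunits have a pair or trio of genes whose products are used in different tissues, and in the PVN 1 gene dominated in most. Cox4i1, the general form of subunit 4, held 99.3% to 99.8% of the summed CPM per kb of Cox4i1 and Cox4i2 in every library. Cox6b1, Cox7b and Ndufa4 held at least 99.4%, 98.8% and 99.0% in their pairs, and Cox8a at least 99.9% among the Cox8 genes. Cox7a2l, a supercomplex factor, held 68.3% to 80.6% of its family, ahead of Cox7a2 with 12.3% to 17.3% and the muscle form Cox7a1 with 6.14% to 14.7%. Cox7a2 had a mean raw count of 549, against 4005 for Cox7a2l. Whether alignment or counting lowered it was not tested, so its share is that of the counts only.

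Cox6a2, the heart and muscle form of subunit 6a, was uneven among the HFD+Mino mice. It was at 5.59, 4.57 and 5.36 CPM in Control mice, 2.61, 9.83 and 9.53 in HFD mice and 90.2, 0.669 and 23.1 in HFD+Mino mice. HFD+Mino samples lay on both sides of all others, the log2 fold change was 2.36 ± 1.06 (FDR 0.116), and Cox6a1 held 94.7% to 99.9% of the pair. Cox4i2, the lung form described as responding to low oxygen, was at 2.41, 1.55 and 1.21 CPM in Control mice, 1.00, 0.609 and 1.62 in HFD mice and 8.32, 3.12 and 2.02 in HFD+Mino mice. It rose with the drug by 2.05 ± 0.61 (FDR 0.0307). Cox7a1 was at 8.62, 4.80 and 2.27 CPM in Control mice, 2.41, 3.36 and 2.34 in HFD mice and 16.9, 17.9 and 4.56 in HFD+Mino mice, and it rose by 2.28 ± 0.57 (FDR 0.0177).

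**Figure D5:**
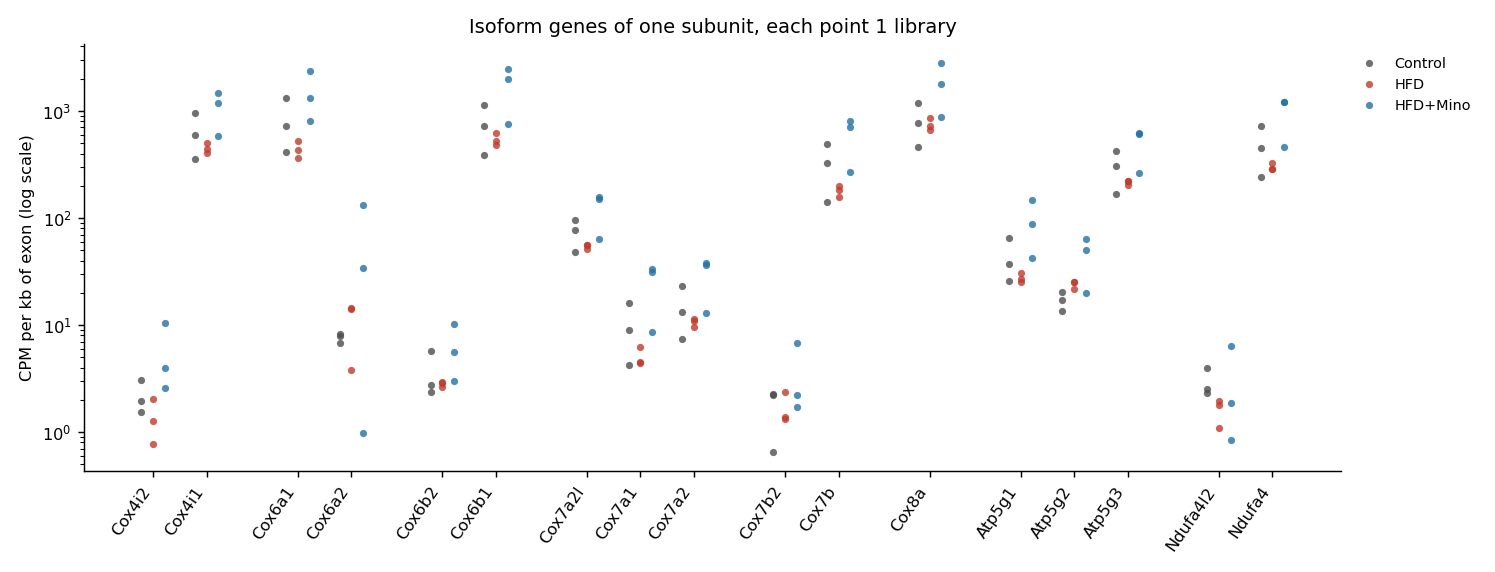
CPM per kilobase of exon (vertical axis, log scale) of the isoform genes of each subunit (horizontal axis), with 1 point per library coloured by group. The main form lies well above its partner in each pair, and Cox6a2 spreads most widely among the HFD+Mino libraries.

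Atp5g1, Atp5g2 and Atp5g3 encode an identical mature subunit c, the proton-carrying ring of the ATP synthase, behind different import leaders. They lie at chr11:96072793-96075694, chr15:102662868-102671047 and chr2:73908447-73912464. The last 78 codons before the stop encode the same amino acids in all 3, while the bases agreed in 84.81% of 237 nt between Atp5g1 and Atp5g2, 78.48% between Atp5g1 and Atp5g3, and 77.22% between Atp5g2 and Atp5g3. The longest identical run was 21 nt, shorter than the 50-base reads, so reads in this stretch can be told apart. Its first 90 nt are shown, from the GENCODE M21 transcripts on the coding strand, to make the difference visible, with capitals at each position where the 3 differ.
Atp5g1: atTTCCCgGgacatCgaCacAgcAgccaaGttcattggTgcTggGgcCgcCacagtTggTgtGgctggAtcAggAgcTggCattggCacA
Atp5g2: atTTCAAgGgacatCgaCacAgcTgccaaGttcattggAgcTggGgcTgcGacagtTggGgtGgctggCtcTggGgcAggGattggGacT
Atp5g3: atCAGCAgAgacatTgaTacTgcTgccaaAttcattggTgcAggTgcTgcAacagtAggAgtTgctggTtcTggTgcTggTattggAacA
Per kilobase of exon, Atp5g3 held 74.6% to 85.0% of the 3 genes, Atp5g1 9.94% to 17.8% and Atp5g2 3.94% to 9.99%. Per kilobase of the principal transcript the shares were 86.2% to 92.3%, 3.77% to 7.10% and 3.30% to 8.33%. Atp5g2 was then above Atp5g1 in every HFD library, so the order of these genes depended on the length used. Atp5g1 rose by 1.74 ± 0.44 (FDR 0.0175) and Atp5g3 by 1.21 ± 0.38 (FDR 0.036) in HFD+Mino against HFD, and Atp5g2 had 0.88 ± 0.35 (FDR 0.0849).

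Promoters of the members were searched for motifs of factors known to serve respiratory genes. Whether members with a motif moved differently from those without one was not tested. Of 87 members, 68 had a promoter in RefSeq (GRCm38.p6), taken as the 250 bases before the start site. The NRF1 motif, GCGCA and GCGC with any 1 base between them, searched on both strands, occurred in 13 of 68 (19.12%), against 4.233% of all promoters and 7.908% of those of tested genes. It was in 6 of 34 promoters of complex I, 2 of 3 of complex II, 0 of 4 of complex III, 1 of 12 of complex IV and 4 of 15 of complex V. The motif of ETS factors such as GABP, CCGGAAG, occurred in 11 of 68 (16.18%), against 13.07% among tested genes, and the YY1 motif AANATGGCG in 3 (4.412%), against 2.128%. A match is a description of letters and not a binding site. Matches are shown from a complex II subunit with several, and from subunits of complexes I, IV and V, written 5' to 3' on the strand of the gene with the motif in capitals.
Sdha, chr13:74350276-74350305: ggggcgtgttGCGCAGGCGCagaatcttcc
Sdha, chr13:74350319-74350348: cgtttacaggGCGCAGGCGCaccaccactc
Sdhd, chr9:50603909-50603938: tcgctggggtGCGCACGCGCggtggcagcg
Cox6a1, chr5:115349056-115349085: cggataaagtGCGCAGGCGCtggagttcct
Ndufs5, chr4:123718265-123718294: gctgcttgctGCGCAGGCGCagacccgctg
Atp5g2, chr15:102671070-102671099: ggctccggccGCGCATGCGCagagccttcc
Atp5k, chr5:108434430-108434459: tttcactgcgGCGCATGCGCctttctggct

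Factors and partners that make the chain were counted from lists of known genes. Of 15 regulators of mitochondrial biogenesis, 9 were above 0 in HFD against Control (median log2 fold change 0.26) and none was called. At FDR under 0.05 and 1.5-fold 2 were higher and 0 lower, where 2.57% and 3.21% of all genes were. In HFD+Mino against HFD the median was -0.20, with 6 above and 9 below 0. At FDR under 0.05 and 1.5-fold 5 were lower and 0 higher, where 12.9% and 14.6% of all genes were. At FDR under 0.01, 1 was called lower, where 2.16% of all genes were: Gabpa, a subunit of GABP. It was at 10.9, 9.94 and 10.7 CPM in Control mice, 17.9, 23.1 and 18.4 in HFD mice and 6.85, 7.06 and 8.44 in HFD+Mino mice, with a log2 fold change of -1.41 ± 0.24 (FDR 0.00606). Gabpa overlaps the exons of Atp5j on the opposite strand over 12.7% of the length of Atp5j, and strand use in counting is not given in the sources used here. Ppargc1a, the coactivator that drives mitochondrial biogenesis, was at 56.8, 35.8 and 39.8 CPM in Control mice, 27.9, 25.8 and 31.7 in HFD mice and 15.2, 25.6 and 20.8 in HFD+Mino mice, with FDRs of 0.204 and 0.196 in these comparisons. Nrf1 had -0.28 and -0.20 (FDR 0.579 and 0.588).

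Assembly factors of the 5 complexes were counted in the same way. Of 47 tested, the median log2 fold change was -0.26 in HFD against Control and 0.74 in HFD+Mino against HFD, with 5 above 0 in the first comparison and 5 below 0 in the second. In the second, 23 rose, where 14.6% of all genes did, and 2 fell, Timmdc1 (-0.93, FDR 0.0219) and Coa5 (-0.77, FDR 0.046), where 12.9% did. Surf1, a complex IV assembly factor, was the 1 of 47 called higher in it, where 1.98% of all genes were. Surf1 was at 159, 141 and 97.1 CPM in Control mice, 73.6, 81.6 and 76.6 in HFD mice and 283, 268 and 132 in HFD+Mino mice, with 1.56 ± 0.30 (FDR 0.00889). Ttc19, which acts in complex III, was the 1 of 47 called lower in HFD against Control, where 1.42% of all genes were. Ttc19 was at 114, 124 and 118 CPM in Control mice, 20.7, 41.2 and 44.5 in HFD mice and 77.4, 74.7 and 109 in HFD+Mino mice, with -1.74 ± 0.29 (FDR 0.00646). Among 23 genes of electron carriers and partners, Coq2, which makes coenzyme Q, was at 136, 147 and 122 CPM in Control mice, 35.5, 63.1 and 48.8 in HFD mice and 152, 98.0 and 144 in HFD+Mino mice. Coq2 was the 1 of 23 called lower in HFD against Control, with -1.46 ± 0.26 (FDR 0.00918), where 1.42% of all genes were. It was also the 1 called higher in HFD+Mino against HFD, with 1.42 ± 0.26 (FDR 0.00797), where 1.98% of all genes were. Cycs, the somatic cytochrome c gene, had -0.55 ± 0.36 and 1.06 ± 0.36 (FDR 0.418 and 0.0505). The 13 protein genes of the mitochondrial genome had medians of 0.27 and 0.71 in the same comparisons, with 0 called in either.

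Reads of some members can come from elsewhere. Of 83 members with a principal transcript, 46 shared at least 1 stretch of 50 bases with another annotated gene, and Atp5g2 (87.4%), Atp5l (84.8%), Cox7c (53.0%) and Atp5o (50.3%) shared the most. How reads with several positions were counted is not given in the sources used here. Low counts, such as those of Sdhd, Cox7a2 and Uqcr11, could also come from reads lost in alignment or counting, which was not tested. Part of the exons of Ndufb6 (39.0%) and Ndufa13 (30.0%) is also covered by another gene on the opposite strand.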

How the data were processed

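Total RNA from PVN punches was made into libraries with the SMARTer Ultra Low Input v4 and Nextera XT kits and sequenced for 50 cycles from each end. Per the submitters' processing notes the authors aligned reads to GRCm38 with HISAT2 and counted them per gene with featureCounts, and the deposited values are raw counts with no normalization. Versions, strand use and the handling of reads with several positions are not given in the sources used here.

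All 9 samples entered 1 model in edgeR 4.0.16 (R 4.3.3), with 1 mean per group, the default filter on low counts (17344 genes kept), TMM scaling, the quasi-likelihood test and Benjamini-Hochberg adjustment over all tested genes. A call needed FDR under 0.01 and at least 1.5-fold. The 3-way test, with 2 degrees of freedom, was of any difference among the groups. Its call also needed HFD as the highest or lowest group, with the 1.5-fold taken from the mean of the 3 group log2 values. Errors of log2 fold changes are standard errors. Exon and coding lengths, and transcripts, came from GENCODE M21, promoters and gene coordinates from RefSeq (GRCm38.p6). The model was tested on simulated data. Total counts of 17728590 to 42326213 limit precision less than the spread between the 3 mice of a group. Replicate pairs of a group differed by more than sampling noise, with a chi-square per degree of freedom of 22.0 to 337.

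Members and gene lists were chosen with earlier results of these data known. Named genes were, in each complex, the member with the highest level per length, the 2 with the lowest and the 2 with the highest log2 fold change in HFD against Control, any called member, members of the isoform families, the core subunits of complex I and the subunits of complex II. Other named genes were chosen after their values were seen, and the values of 1 member are not reported here. In Control and HFD+Mino, samples with the same replicate number had correlated deviations from their group means (0.135, 0.163 and 0.292 over genes), and the number was used as a block there. For HFD the labels give 2 different numberings, and same-numbered samples had correlations of -0.152 to -0.006. Alternatives were DESeq2 1.42.0, the likelihood ratio test, other scaling, filters and thresholds, trends on length and GC content removed, fits of 2 groups, and each library left out.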

Additional observations from a re-analysis of the deposited data

How the results depend on the processing

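No member was called in HFD against Control under any alternative. In HFD+Mino against HFD the count of 1 became 62 at FDR under 0.05 (14.6% of all genes were called higher), 57 with DESeq2 (10.5%), 54 with the likelihood ratio test (10.3%), 41 with no filter on low counts (4.45%), 6 with a trend on GC content removed (4.45%), and 0 with HFD and HFD+Mino alone (0.89%) or with a trend on exon length (1.85%) or, chosen after seeing the data, on coding length (2.44%) removed. It ran from 0 to 62 (11.6%) with 1 library left out. In the 3-way test the count of 0 became 39 at FDR under 0.05 (6.65% of all genes had HFD lowest), 40 with DESeq2 (7.05%), 39 with the likelihood ratio test (6.65%) and 21 with no filter (3.0%), and ran from 0 to 51 (7.23%) with 1 library left out. In HFD+Mino against Control it ran from 0 to 15 (4.03%). The highest count in each came without HFD+Mino replicate 3. The cause was not tested. Blocked by replicate number in Control and HFD+Mino samples, a choice made from these same data, the counts were 69, 32 and 45 in these 3 tests. Blocked in all groups they were 13 in HFD+Mino against HFD and 0 in the others. Neither block changed the call of a member in HFD against Control.

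Medians in HFD+Mino against HFD moved with a trend on exon length removed to 0.55 over members and to 0.62, 0.35, 0.36, 0.49 and 0.62 in complexes I to V, and with a trend on coding length removed to 0.50, and 0.64, 0.30, 0.52, 0.33 and 0.40. In HFD+Mino against Control the coding trend gave 0.27 over members, -0.13 in complex II, 0.10 in complex IV and 0.24 in complex V, and the exon trend 0.31 in complex I and 0.21 in complex IV. With 1 library left out the median of the members ran from -0.73 to -0.17 in HFD against Control, from 1.15 to 1.75 in HFD+Mino against HFD and from 0.67 to 1.35 in HFD+Mino against Control. Of 2517 values of named members under the alternatives, 81 had the other sign.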
